A study of Mus musculus with 6 samples.

Results

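The subject was 8 genes chosen by name: Gas5, Snhg1, Snhg3, Snhg5, Snhg6, Snhg8, Snhg12 and Zfas1, which are noncoding genes whose introns hold small nucleolar RNAs (snoRNAs). Of these 8 genes, 6 had a row among the 41214 genes of the expression table: Gas5, Snhg3, Snhg5, Snhg6, Snhg12 and Zfas1. No row carried the Ensembl gene identifier or any transcript identifier of Snhg1 or Snhg8, so those 2 genes were not analysed here. The 6 measured genes all passed the filter on low counts.

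The RNA came from endothelial cells of embryonic mouse hearts, sorted as positive for CD31 and green fluorescence, in 6 libraries. All 3 groups carried Pdgfb-iCreERT2-IRES-EGFP, a transgene in which the endothelial Pdgfb promoter drives a tamoxifen-inducible Cre recombinase and the green fluorescent protein. All received tamoxifen at E13.5 and hearts were taken at E14.5, from several litters of independent mothers. The wt group (libraries 4 and 5, labelled WT) had both Dll4 copies intact and came from Cre mice mated with wildtype females. The het group (libraries 2 and 3, Dll4+/-) came from Dll4 flox/flox Cre mice mated with wildtype, and the KO group (libraries 1 and 2, Dll4-/-) from such Cre mice mated with Dll4 flox/flox females. How many hearts went into a library, and whether libraries of a group came from separate embryos, is not given, so the p-values measure only the spread between these samples. Dll4, which encodes a Notch ligand, stood at 196 and 183 CPM (read counts scaled to a common library size) in the wt libraries, 81.2 and 85.9 in het, and 19.4 and 13.7 in KO, which follows the labelled genotypes.

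A snoRNA host gene is transcribed as a long precursor, its introns are trimmed to snoRNAs, and the snoRNAs guide chemical modification or processing of ribosomal and other RNAs. The spliced remainder has little or no protein-coding use, and for several hosts it is known to be degraded by nonsense-mediated decay once ribosomes engage it. Many hosts, Gas5 among them, begin with a terminal oligopyrimidine (TOP) tract, the start also used by ribosomal protein genes, which ties translation and turnover of the transcript to growth signals. The level of a host transcript therefore depends on both its synthesis and its decay, and a read count does not separate them.

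The starts of these genes are shown because a TOP tract is the feature that host and ribosomal protein genes share. RefSeq promoter windows on GRCm38.p6 matched 7 of the 8 symbols at the start of the RefSeq gene, 5 of them measured here. A TOP-like run was searched on the transcribed strand as at least 5 pyrimidines in a row, the first a C, beginning within 10 bases of the annotated start. It was present at 4 of the 7 gene starts, 3 of them among the 5 measured genes, against 30.7% of all 32851 promoter windows and 54.4% of the 68 windows of ribosomal protein genes. Gas5 has a further RefSeq start inside the gene, and its run is there and not at the upstream start. Each line below gives 60 bases before the start and 40 from the start on, 5′ to 3′ on the transcribed strand, with the TOP-like run in capitals.
Gas5, internal start, chr1:161035106-161035205, plus strand: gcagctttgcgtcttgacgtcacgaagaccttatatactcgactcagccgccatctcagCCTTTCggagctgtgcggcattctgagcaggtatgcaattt
Snhg12, chr4:132308618-132308717, plus strand: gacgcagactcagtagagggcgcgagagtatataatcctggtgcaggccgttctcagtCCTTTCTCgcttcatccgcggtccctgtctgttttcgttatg
Snhg5, chr9:88522858-88522957, minus strand: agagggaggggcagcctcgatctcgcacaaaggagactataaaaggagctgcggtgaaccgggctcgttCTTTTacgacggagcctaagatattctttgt
Snhg3, chr4:132353647-132353746, minus strand: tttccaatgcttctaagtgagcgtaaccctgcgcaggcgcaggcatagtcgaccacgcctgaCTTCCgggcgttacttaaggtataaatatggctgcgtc
Zfas1, chr2:167062874-167062973, plus strand: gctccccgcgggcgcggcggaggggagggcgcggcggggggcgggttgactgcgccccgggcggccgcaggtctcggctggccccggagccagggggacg
The runs differ in place. That of Snhg12 is 8 bases long and spans the annotated start, that of Gas5 is 6 bases long and begins 1 base before it, and those of Snhg3 and Snhg5 are 5 bases long and lie 2 and 9 bases into the transcript. Zfas1 holds no such run in this window.

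Other motifs were searched on both strands over the whole 300 bases, that is 250 before and 50 after the start. TATAAA was present at 4 of the 7 gene starts, Snhg5 and Snhg3 among the measured genes, and in 13.6% of all windows. Relative to the start the match began at -23 in Snhg5 but at 22, inside the transcript, in Snhg3. CACGTG, the E-box that Myc can bind, was at 0 of the 7 and in 7.15% of all windows. TGGGAA, the core recognised by the Notch effector RBPJ, was at 2 of the 7, Gas5 and Snhg12, and in 25.6% of all windows, and the longer GTGGGAA at 0 of the 7 and in 6.38%. CCGGAAG, an ETS factor core, was at 1 of the 7 and in 8.86%. In Snhg3 that match, read as CTTCCGG, covers the TOP-like run. These matches describe letters only.

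The 6 genes are short and most share ground with a neighbour, which matters for reads without strand. On GRCm38 with GENCODE M21, Gas5 (ENSMUSG00000053332) lies at chr1:161034422-161038539 and holds 10 annotated snoRNA genes, with Snord80 entered more than once. Its first 428 bases lie across from the opposite-strand gene Zbtb37, with no shared exon base. Zfas1 (ENSMUSG00000074578), at chr2:167062934-167065862, holds 3 snoRNA genes, and its start lies 81 bases from that of the opposite-strand gene Znfx1, with 82 exonic bases in common. Snhg3 (ENSMUSG00000085241), at chr4:132348014-132353686, holds 2 snoRNA genes and overlaps the same-strand gene Rcc1 over 5592 bases, 135 of them exonic in both, and the opposite-strand noncoding gene Gm17300, with 705 shared exonic bases. Snhg12 (ENSMUSG00000086290), at chr4:132308623-132311024, holds 5 snoRNA genes, with Snora16a entered more than once. Snhg5 (ENSMUSG00000097195), at chr9:88521050-88522929, holds 2. Neither Snhg12 nor Snhg5 overlaps another longer gene. Snhg6 (ENSMUSG00000098234), at chr1:9941959-9944118, holds 1 and shares 127 exonic bases with the opposite-strand gene Mcmdc2, which had at most 2 counts in a library.

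**Figure D1:**
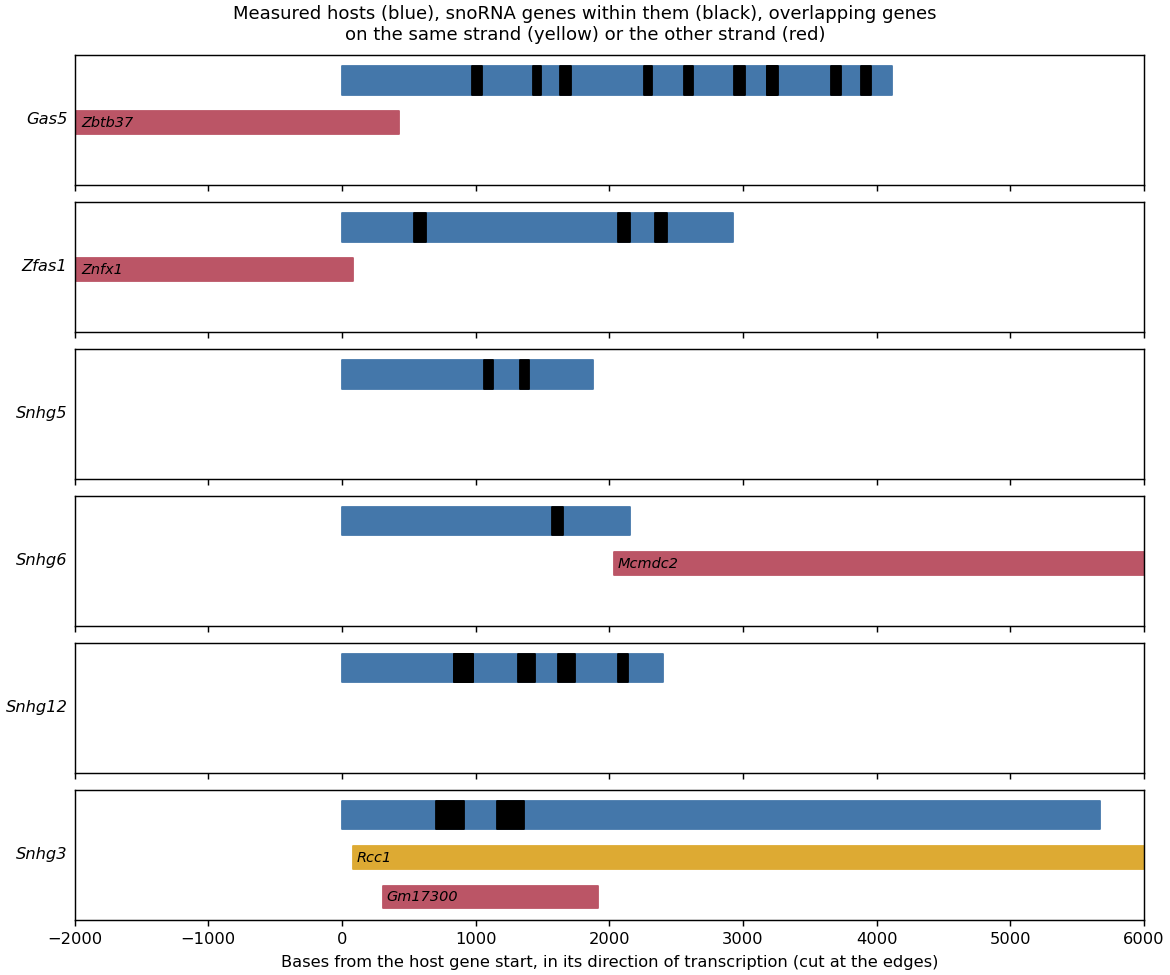
Map of the 6 measured host genes, with the distance from the host gene start in bases on the x axis. Blue bars are the host genes, black blocks the snoRNA genes inside them, and yellow and red bars other genes on the same or the opposite strand, cut at the plot's edges. The red Znfx1 bar ends 81 bases into Zfas1, while the yellow Rcc1 bar covers nearly all of Snhg3.

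The snoRNAs themselves were nearly unseen. Of 23 snoRNA genes annotated inside the 6 hosts, 21 had a row. Those without a row were further entries of Snord80 and Snora16a, at nearly the same place as the entry with a row. Of the 21, 19 were listed at 0 in all 6 libraries. The other 2, Snora73a and Snora73b in Snhg3, reached at most 0.61 expected counts. Among all 1484 snoRNA rows, 1442 were at 0. A count of 0 allows up to 3 counts, which is 0.390 CPM in the deepest library and 2.14 CPM in the shallowest, for counting error only. The values below are those of the host rows and do not measure snoRNA levels. Every snoRNA gene in Gas5, Snhg5, Snhg12 and Zfas1 lies wholly within annotated exons of its host. Reads from a snoRNA or unspliced precursor there could therefore have been credited to the host row.

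Totals ranged from 1537908 counts in het replicate 2 to 6501798 in KO replicate 1. The KO libraries stood apart in makeup: Lars2, the mitochondrial leucyl-tRNA synthetase gene, took between 16.3% and 17.1% of counts in the wt and het libraries and 0.0572% and 0.0611% in KO. The structured noncoding RNAs 7SL and 7SK together took between 0.138% and 0.240% in wt and het, and 0.00135% and 0.00241% in KO. The difference was thus not in Lars2 alone, and its cause was not tested. The labels name no batch, and any that set the KO libraries off cannot be told apart from genotype in the comparisons with KO. CPM were scaled with edgeR's TMM factors. With scaling on library size only, the median gene shifted from -0.02 to 0.35 (log2 fold change, KO against wt) and to 0.36 (KO against het), so directions against KO are relative to the bulk of genes. Among 18 endothelial markers, none of them at 0 in all libraries, 3 rose and 7 fell in KO against wt, where 14.7% of all genes rose and 17.3% fell. With library size only the balance turned, to 8 higher and 3 lower. Pecam1 (CD31) was at 826 ± 11.1 CPM (SD, n = 2) in wt, 734 ± 25.7 in het and 868 ± 33.9 in KO. Cdh5, the gene of VE-cadherin, was at 1955 ± 37.5, 1859 ± 71.7 and 401 ± 28.1 CPM in the same order. In such bulk samples, fewer cells of a type and less RNA per cell cannot be told apart.

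Gas5, the growth-arrest-specific transcript, was the most abundant host. Its level was 89.0 CPM in wt replicate 4 and 131.6 in wt replicate 5, 96.9 in het replicate 2 and 153.9 in het replicate 3, and 94.9 and 106.9 in KO replicates 1 and 2. The 3 groups overlapped, and the gap between the libraries of wt, and of het, was larger than any gap between group means. The counting intervals (exact Poisson, 95%) of the pairs did not meet either, at 77.4 to 102 against 114 to 151 CPM in wt and 81.3 to 115 against 139.9 to 169 in het. The log2 fold change was -0.11 ± 0.25 (SE) in KO against wt (edgeR adjusted p = 0.777), 0.24 ± 0.26 in het against wt (0.864), while KO against het gave -0.35 ± 0.24 (0.333). The last was called without het replicate 2 (log2 fold change -0.60, adjusted p = 0.0242).

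Zfas1, the host of the box C/D snoRNA Snord12 and its relatives, was highest in the het libraries, as was Snhg5. It stood at 17.1 and 24.7 CPM in wt (40 and 39 counts), 51.3 and 42.9 in het (72 and 123 counts), and 28.3 and 19.8 in KO (218 and 117 counts). Both het libraries lay above all 4 others, while wt and KO overlapped. In KO against het Zfas1 fell 1.92-fold (log2 fold change -0.94 ± 0.23, edgeR adjusted p = 0.00342). In het against wt the log2 fold change was 1.18 ± 0.26, a ratio of 2.27, but edgeR adjusted p = 0.0758 did not pass over 10952 genes. That p ran from 0.00141 with no filter on low counts to 0.925 without wt replicate 4. In KO against wt it was 0.24 ± 0.26 (edgeR adjusted p = 0.511), with a 95% interval of -0.29 to 0.78.

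The share of Zfas1 among the 6 hosts needs no scaling between libraries. Of the summed counts of the 6 hosts, Zfas1 made up 11.4% and 11.3% in the wt libraries, 24.1% and 16.1% in het, and 15.9% and 11.2% in KO. By this measure het replicate 3 and KO replicate 1 were nearly equal. The share also depends on Gas5, which made up from 45.5% of the sum in het replicate 2 to 60.1% in wt replicate 5. The neighbour Znfx1, a zinc-finger helicase gene that starts on the other strand, stood at 26.1 and 15.8 CPM in wt, 19.9 and 18.5 in het, and 20.8 and 18.8 in KO. Its log2 fold change was -0.17 ± 0.29 in het against wt, while KO against het gave 0.055 ± 0.27, and its groups overlapped in all 3 comparisons. The Zfas1 counts were not whole in any library, so part of its reads was divided with other rows and its level is uncertain to that extent.

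Summed markers of cardiomyocytes, and of mural cells and fibroblasts, were highest in both het libraries, as Zfas1 was. The summed level of 14 cardiomyocyte markers was 129 and 116 CPM in wt, 251 and 202 in het, and 60.8 and 55.3 in KO, with no marker at 0 in all 6 libraries. Of the 10 that could be tested, 7 had both het libraries above both wt libraries (19.2% of all genes tested did). All 10 fell in KO against het, as did 17.2% of all genes. In KO against wt 4 of the 10 fell (17.3% of all genes did), while Zfas1 was not lower. The 14 mural and fibroblast markers summed to 234 and 315 CPM in wt, 392 and 516.5 in het, and 304 and 204 in KO, also with none at 0 throughout. The 12 macrophage and leukocyte markers summed to 60.8 and 135 CPM in wt, 366 and 118 in het, and 72.5 and 36.0 in KO, with het replicate 2 far above the rest. Of the 5727 genes with a mean log2 CPM of at least 5, the closest to Zfas1 in profile was Postn, a matrix protein gene on the mural and fibroblast list, at 20.1 and 30.4 CPM in wt, 74.1 and 62.5 in het, and 33.8 and 20.02 in KO. The part of these cells in the Zfas1 result was not tested.

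**Figure D2:**
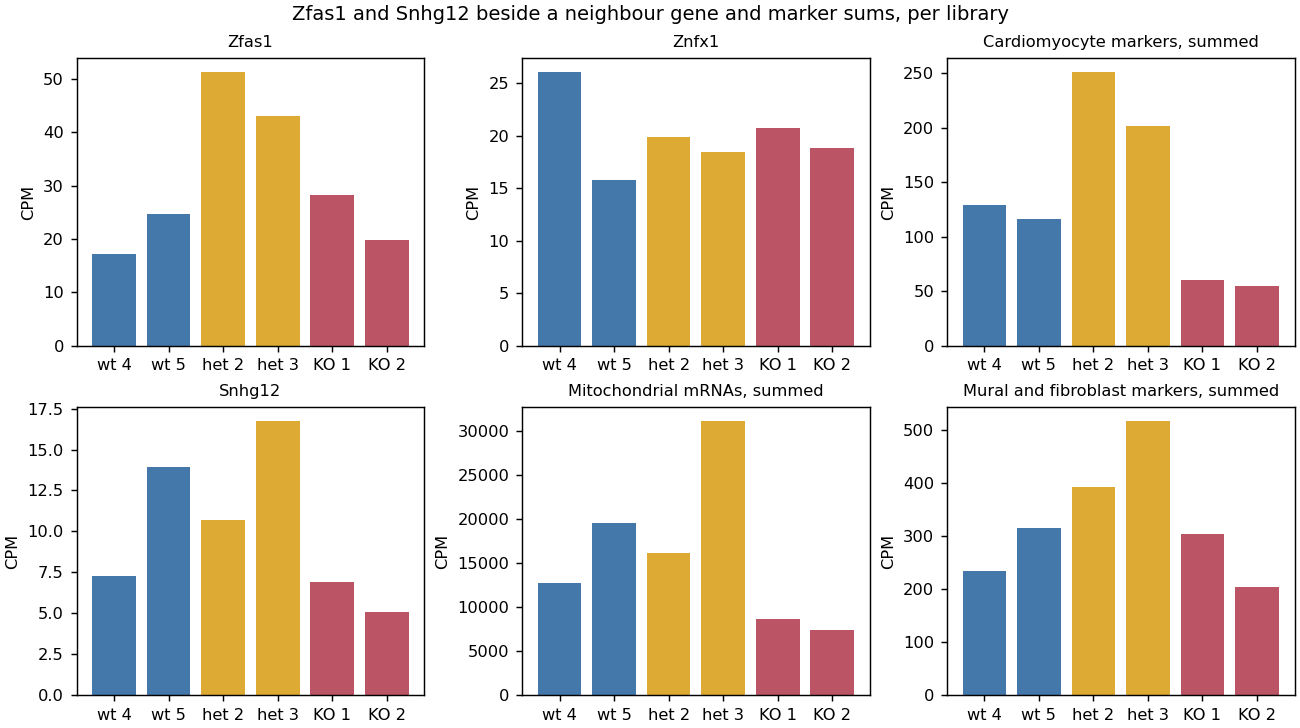
Level in CPM (y axis, from 0) in each of the 6 libraries (x axis) of Zfas1, its neighbour Znfx1, Snhg12, and the summed markers of cardiomyocytes, mural cells and fibroblasts, and mitochondrial messenger RNAs. Bars are single libraries, coloured by genotype. Zfas1 and both marker sums of other heart cells are highest in the 2 het libraries, and Snhg12 ranks the libraries as the mitochondrial sum does.

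Snhg12, host of the H/ACA snoRNAs Snora16a, Snora44 and Snora61 and of Snord99, was lowest in KO. It stood at 7.28 and 13.9 CPM in wt (17 and 22 counts), 10.7 and 16.8 in het (15 and 48 counts), and 6.88 and 5.09 in KO (53 and 30 counts). Both KO libraries lay below the other 4. It fell 2.34-fold in KO against het (log2 fold change -1.23 ± 0.40, edgeR adjusted p = 0.0240). In KO against wt the log2 fold change was -0.77 ± 0.42 (95% interval -1.65 to 0.11, edgeR adjusted p = 0.177), and in het against wt 0.46 ± 0.43 (adjusted p = 0.828). The call was lost with DESeq2 (log2 fold change -1.21, adjusted p = 0.0978), with thinning to equal totals (-1.26, adjusted p = 0.0746), with library size only (-0.85, adjusted p = 0.0904), without het replicate 3 (log2 fold change -0.82, adjusted p = 0.308) and without KO replicate 2 (-1.03, adjusted p = 0.146).

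The libraries followed the same order for Snhg12 as for the messenger RNAs encoded in mitochondria. The 13 mitochondrial transcripts summed to 12704 and 19535 CPM in wt, 16157 and 31207 in het, and 8664 and 7405 in KO. From KO replicate 2, the lowest, through KO replicate 1, wt replicate 4, het replicate 2 and wt replicate 5 to het replicate 3, the ranking was the same in both. Of 5727 genes with a mean log2 CPM of at least 5, the closest to Snhg12 in profile was mt-Co3, a subunit gene of cytochrome c oxidase. This order was noticed after the values were seen, and its part in the Snhg12 result was not tested.

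Snhg5, host of the U50 snoRNA genes Snord50a and Snord50b, had replicates close to each other in all 3 groups. It was at 24.0 and 23.4 CPM in wt, 29.2 and 32.8 in het, and 21.3 and 22.4 in KO. The groups did not overlap in any comparison, with het highest and KO lowest. The 95% counting intervals of the wt libraries, 18.1 to 31.1 and 16.5 to 32.3 CPM, met those of every het and KO library. The differences were small, and none passed: the log2 fold change was -0.12 ± 0.23 in KO against wt (edgeR adjusted p = 0.734), 0.40 ± 0.24 in het against wt (0.702), while KO against het gave -0.52 ± 0.22 (0.0782). The last has a 95% interval of -0.97 to -0.063. Of 16 alternatives only limma-voom called it (adjusted p = 0.0488). DESeq2 gave -0.50 (adjusted p = 0.295), and edgeR with library size only gave -0.14 (adjusted p = 0.625).

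Snhg6, host of Snord87, varied more within wt and het than between groups. It was at 8.56 and 18.4 CPM in wt (20 and 29 counts), 20.7 and 12.9 in het (29 and 37 counts), and 17.5 and 17.1 in KO (135 and 101 counts). The 2 KO libraries lay within the range of the other 4. The log2 fold change was 0.42 ± 0.34 in KO against wt, with a 95% interval of -0.28 to 1.13 and edgeR adjusted p = 0.367.

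Snhg3, host of the U17 snoRNAs, which act in processing of ribosomal RNA, had the lowest CPM of the 6 in wt and het, with 6 to 21 counts in each of those libraries. It stood at 4.28 and 6.96 CPM in wt, 4.27 and 7.33 in het, and 8.96 and 6.62 in KO. The groups overlapped in every comparison. Its log2 fold change in KO against wt was 0.51 ± 0.48 (edgeR adjusted p = 0.446), with a 95% interval of -0.48 to 1.51, which is wide because so few reads were counted. Rcc1, the chromatin-binding exchange factor for Ran which starts 81 bases away, rose 2.12-fold in KO against wt, from 53.9 and 58.2 CPM to 120 and 117 (log2 fold change 1.08 ± 0.16, edgeR adjusted p = 1.79e-05). Snhg3 and Rcc1 share exonic bases on the same strand, so how their reads were divided bears on Snhg3, the smaller of the pair.

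**Figure D3:**
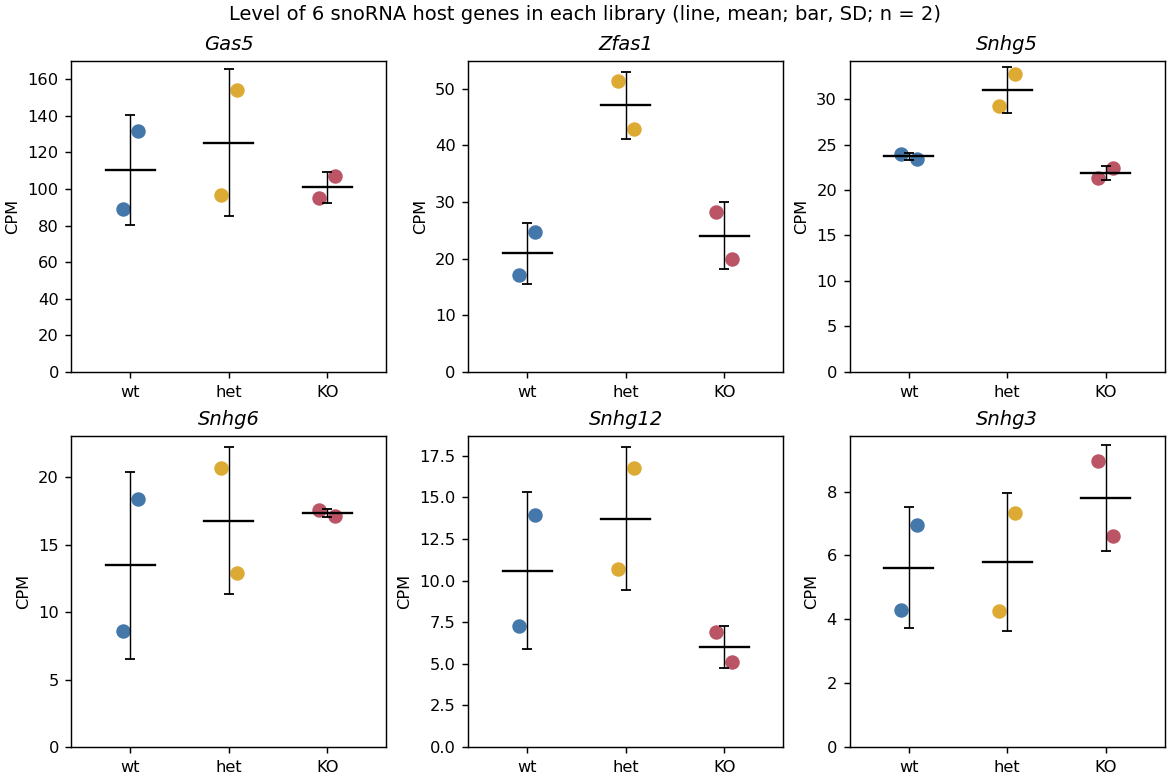
Level in CPM (y axis, from 0) of each measured host gene by genotype (x axis). Points are libraries, horizontal lines the mean of 2 and vertical bars the SD. Zfas1 is highest in both het libraries, Snhg12 lowest in both KO libraries, and Gas5 and Snhg6 spread as widely within wt and het as between groups.

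Between genes, levels were compared per length, as mean CPM per kilobase of exonic sequence in wt. Gas5 was highest at 29.3, followed by Snhg5 at 13.7, Snhg6 at 11.7, Zfas1 at 7.14, Snhg3 at 5.70 and Snhg12 at 4.41. Gas5 lay above the other 5 in both wt libraries, at 23.7 and 35.01. Each later pair of neighbours in this order overlapped between the wt libraries. In het, Zfas1 moved up to 16.1, between Snhg5 at 17.9 and Snhg6 at 14.6, and the libraries of these 3 overlapped. Annotated exons of Zfas1 and Snhg12 cover their whole spans, 2929 and 2402 bases, because some models keep introns, and those of Gas5 and Snhg5 cover 3760 of 4118 and 1730 of 1880 bases. Per-length levels of the spliced RNA are therefore understated for these 4 genes, the top 2 of the order included.

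For each comparison the 6 genes were read against all genes tested. In KO against wt 0 of 6 hosts were called by edgeR, while 32% of all genes were. No host had an unadjusted p under 0.05, against 41.8% of all genes, and DESeq2 and limma-voom also called 0. For 2 of 6, Snhg12 and Snhg5, both KO libraries lay below both wt libraries, as for 34.5% of all genes, and for 0 of 6 above, against 33.2%. The 6 log2 fold changes ran from -0.77 to 0.51, 3 positive and 3 negative, with a median of 0.06 against -0.02 for all genes. Of these, Gas5 and Snhg5 turned positive with library size only. The 95% intervals of the 6 genes together spanned -1.65 to 1.51.

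In het against wt 0 of 6 were called, against 0.173% of all genes in either direction, 0.128% higher and 0.0457% lower. DESeq2 and limma-voom also called 0, and 1 of 6, Zfas1, had an unadjusted p under 0.05, against 8.15% of all genes. All 6 log2 fold changes were positive, from 0.16 to 1.18, with a median of 0.36 against 0.01 for all genes. For 2 of 6, Zfas1 and Snhg5, both het libraries lay above both wt libraries, as they did for 19.2% of all genes, and for 0 of 6 below, against 18.8%. The direction rested on single libraries for 3 hosts: without wt replicate 4, Gas5, Snhg3 and Snhg6 turned negative (-0.045, -0.20 and -0.19), and without het replicate 3, Gas5 and Snhg3 did (-0.17 and -0.35).

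In KO against het 2 of 6 were called, against 31.2% of all genes. Both, Zfas1 and Snhg12, were lower, against 17.2% of all genes, and 0 of 6 were higher, against 13.9%. An unadjusted p under 0.05 was found for 3 of 6, against 41% of all genes. The median log2 fold change was -0.43 against -0.02 for all genes, and 4 of the 6 were negative, of which Gas5 turned positive with library size only. For 3 of 6, Zfas1, Snhg12 and Snhg5, both KO libraries lay below both het libraries, as for 33% of all genes, and for 0 of 6 above, against 31.4%. Scaled by library size only, neither gene was called (adjusted p = 0.0512 for Zfas1 and 0.0904 for Snhg12). The het libraries enter 2 of the comparisons and the wt libraries 2, so the 3 sets of values are not independent.

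**Figure D4:**
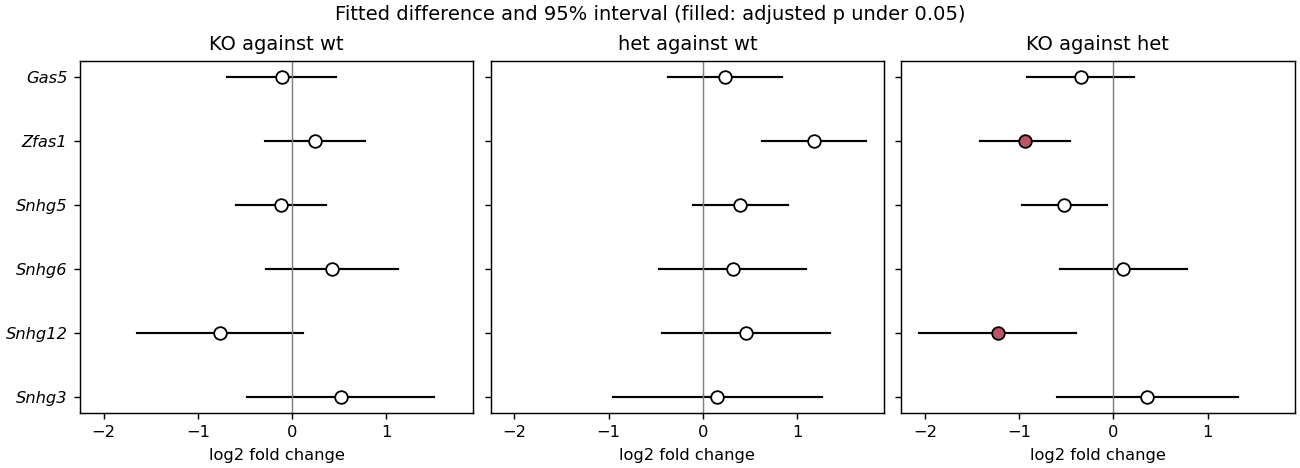
Fitted log2 fold change (x axis) of the 6 host genes (y axis) in the 3 comparisons, with 95% intervals as lines. Filled points passed edgeR's adjusted p under 0.05. The filled points are Zfas1 and Snhg12 in KO against het, at -0.94 and -1.23.

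Other genes of the same machinery were counted beside them, to be read against all 10952 genes. Of these 14.7% rose and 17.3% fell in KO against wt, and 13.9% rose and 17.2% fell in KO against het. Scaled by library size only, 3878 rose and 1034 fell in KO against wt, and 3930 rose and 1016 fell in KO against het. Of 19 further genes listed by name as noncoding hosts, 11 could be tested. Whether each of them, Meg3 and Mir17hg included, holds annotated snoRNA genes was not checked. In KO against wt 2410006H16Rik rose and Snhg14 fell (list median 0.24), in het against wt 0 were called (median 0.60), and in KO against het 4 fell, Snhg9, Snhg14, Meg3 and 1110038B12Rik, and 0 rose (median -1.01). The number that fell in KO against het was 2 with library size only, and in KO against wt 2 rose and 0 fell under that scaling. In het against wt 9 of these 11 were positive, and for 5 both het libraries lay above both wt libraries, as for 19.2% of all genes. The 3 most abundant were 2410006H16Rik, 1110038B12Rik and Snhg17. 2410006H16Rik rose from 12.8 and 10.8 CPM in wt to 21.2 and 24.4 in KO (log2 fold change 0.93 ± 0.27, edgeR adjusted p = 0.0120), with 30.6 and 23.7 in het. 1110038B12Rik stood at 15.4 and 22.1 CPM in wt and 27.8 and 28.3 in het, and fell to 16.5 and 11.03 in KO (log2 fold change -1.01 ± 0.27 against het, edgeR adjusted p = 0.00666). The host Snhg14, an imprinted transcript that holds repeated snoRNAs, fell from 13.3 and 10.8 CPM in wt to 4.68 and 5.598 in KO (edgeR adjusted p = 0.0200). This call was lost with library size only. Snhg14, named for its call, was picked out after its values were seen.

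Ribosomal protein genes, which share the TOP start, went lower in KO relative to other genes: 41 of 77 fell and 2 rose in KO against wt (median -0.39). In het against wt Rps28 rose and 0 fell (median 0.20), and 69 of the 77 were positive. For 33 both het libraries lay above both wt libraries, as for 19.2% of all genes, and for 0 below, against 18.8%. In KO against het 57 fell and 2 rose (median -0.59), Rpl27 and Rps7 being the 2 that rose in both comparisons with KO. Rps2 and Rplp0, both among the most abundant of them, had log2 fold changes of -0.51 and -0.77 in KO against wt. The split depended on scaling. With library size only 15 fell and 13 rose in KO against wt, with the list median 0.37 below that of all genes, and 27 fell and 3 rose in KO against het. The 22 other TOP messenger RNAs on the list had 11 lower and 0 higher in KO against wt (median -0.25), among them the elongation factor genes Eef1a1 (-0.92 ± 0.10) and Eef2 (-0.77 ± 0.09). Scaling by library size only gave 8 lower and 9 higher. In KO against het 9 fell and 1, Cct4, rose, and 8 fell and 8 rose with library size only. Gas5, with a TOP-like run at its internal start, had -0.11 ± 0.25 in KO against wt and -0.35 ± 0.24 in KO against het. Snhg12 had -0.77 ± 0.42 in KO against wt and -1.23 ± 0.40, a called difference, in KO against het.

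Protein-coding genes that hold snoRNAs went both ways. Of 29, 10 rose and 10 fell in KO against wt (median 0.22), 0 were called in het against wt (median 0.02), and 12 rose and 9 fell in KO against het (median 0.06). The 3 most abundant were the chaperone gene Hspa8, which rose 1.45-fold in KO against wt, Hnrnpk, which rose 1.36-fold, and Eef2, which fell 1.701-fold. With library size only 15 rose and 5 fell in KO against wt, and 16 rose and 6 fell in KO against het. Of all genes, on TMM factors, 14.7% rose and 17.3% fell in KO against wt, and 13.9% rose and 17.2% fell in KO against het.

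**Figure D5:**
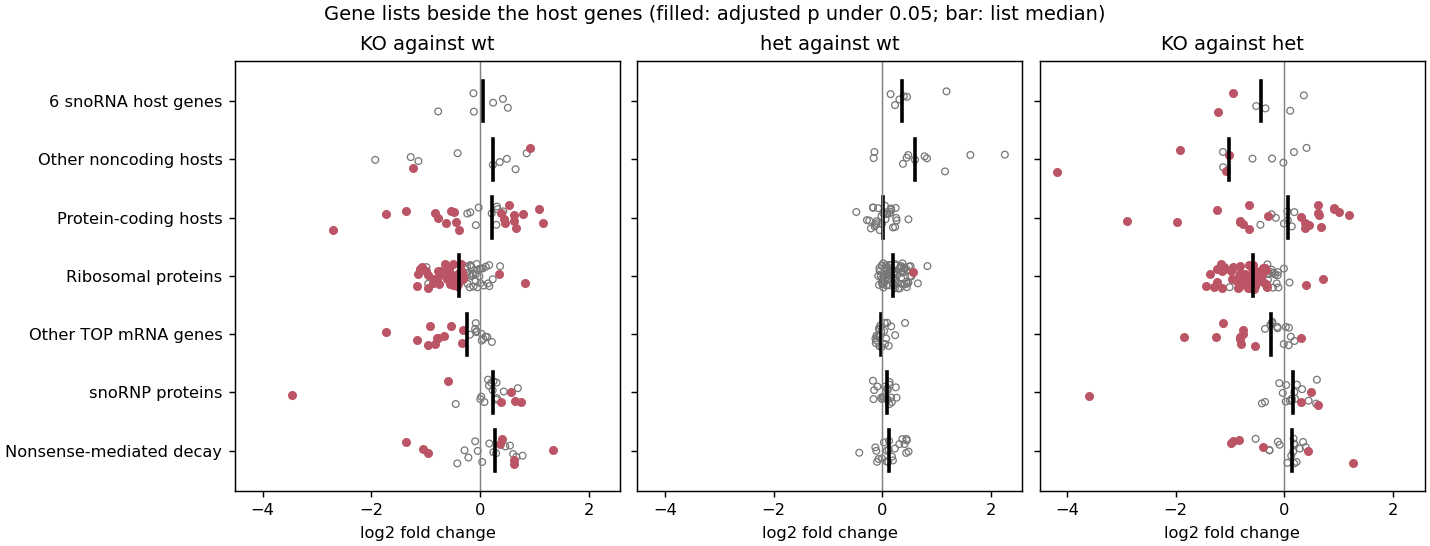
Log2 fold change (x axis) of every tested gene of 7 lists (y axis) in the 3 comparisons. Each point is a gene, filled where edgeR's adjusted p was under 0.05, and black bars are list medians. In KO against het the medians of the noncoding hosts (-0.43 for the 6 genes and -1.01 for the others) lie on the same side as that of ribosomal proteins, -0.59, while in KO against wt they lie on the other side, at 0.065 and 0.24 against -0.39. In het against wt these medians are all positive, at 0.36 and 0.60 for the noncoding hosts and 0.20 for ribosomal proteins.

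The proteins that bind snoRNAs were also listed. Of 20 box C/D and H/ACA core and assembly proteins, 4 rose (Nop56, Nop10, Nufip1 and Nolc1) and 2 fell (Naf1 and Tgs1) in KO against wt (median 0.24), and 0 were called in het against wt (median 0.082). In KO against het Nop56, Nop10 and Nolc1 rose and Naf1 fell (median 0.16). Of all genes 14.7% rose and 17.3% fell in KO against wt, and 13.9% rose and 17.2% fell in KO against het. On library size only, 16 of the 20 proteins rose and 1 fell in KO against wt, and 13 rose and 1 fell in KO against het. Nop56, a core box C/D protein whose gene also hosts snoRNAs, rose from 155 and 180 CPM in wt to 211 and 226 in KO (log2 fold change 0.39 ± 0.11, edgeR adjusted p = 0.0109). Nop58 and Snu13, its partners, had 0.31 and 0.02 and did not pass. Naf1, which is needed to assemble H/ACA particles, fell from 24.0 and 24.0 CPM to 1.69 and 2.71 (edgeR adjusted p = 2.97e-07). Naf1 was picked out after its values were seen.

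Of 22 factors of nonsense-mediated decay and cap-linked turnover, 5 rose and 3 fell in KO against wt (median 0.27), and 0 were called in het against wt (median 0.12). In KO against het 2 rose and 4 fell (median 0.14). Of all genes 14.7% rose and 17.3% fell in KO against wt, and 13.9% rose and 17.2% fell in KO against het. Under library size only the 22 factors had 11 higher and 2 lower in KO against wt, and 9 higher and 1 lower in KO against het. Eif4a3, Rnps1 and Rbm8a, the 3 most abundant and all linked to the exon junction complex, had log2 fold changes of 0.37, 0.25 and -0.28 in KO against wt, and Eif4a3 alone of these passed (edgeR adjusted p = 0.00758). Upf1, the central helicase of the pathway, rose from 57.4 and 65.2 CPM in wt to 160 and 148 in KO, while the kinase gene Smg1 fell from 77.5 and 48.1 to 25.7 and 23.9 (edgeR adjusted p = 3.03e-07 and 4.09e-05). Both were picked out after their values were seen.

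Over the 6 libraries, the mean profile of the host genes was closest to those of Stk11, Hnrnpdl, Cdt1, Zfp384 and Stx4a. The measure was the root mean square difference of centred log2 CPM, over a pool of 5727 genes whose mean log2 CPM reached 5, and it lay between 0.10 and 0.13. For single hosts the closest genes were Tcirg1 for Gas5 (0.08), Srf for Snhg5 (0.05), Tmem209 for Snhg3 (0.10) and Atp5l for Snhg6 (0.12), beside Postn for Zfas1 (0.18) and mt-Co3 for Snhg12 (0.14). No ribosomal protein gene was among these, but so few of 5727 genes were kept that their absence tells little of how close they lay.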

How the data were processed

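Endothelial RNA of 6 libraries was amplified with SMART-Seq v4, which primes on poly(A) tails and marks no strand, and made into Nextera XT libraries, per the labels' protocols. The authors deposited expected counts per gene, estimated reads that need not be whole. CASAVA, cutadapt and RSEM on GRCm38 are named per the submitters' processing notes, without versions; the labels differ on single or paired reads. Symbols and positions came from GENCODE M21, which matched 97.7% of 41214 identifiers.

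Counts were rounded and tested in R 4.3.3 with edgeR 4.0.16: TMM factors, filterByExpr (minimum count 10), a robust quasi-likelihood fit over all 6 libraries with 3 residual degrees of freedom, and two-sided F tests. The call was an adjusted p (Benjamini-Hochberg, 10952 genes) below 0.05. SE is the log2 fold change divided by the root of F. Totals of 1537908 to 6501798 counts set the precision, and intervals on counts cover counting error only. DESeq2 1.42.0, limma 3.58.1 and other settings were alternatives. The procedure was tested on simulated data. Named genes were the 8 hosts, genes that overlap them or start within 1000 bases, the 3 most abundant members of each list, and the nearest profiles; 1 gene this rule names is not reported here. Members and lists were chosen with earlier results of these data known.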

Additional observations from a re-analysis of the deposited data

How the results depend on the processing

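No paired analysis was possible because het and KO share a single replicate number and wt shares none with either. Under 16 alternatives, 260 values of single hosts kept their direction and side of the threshold, 16 changed sign, 6 lost a call and 6 gained one. Zfas1 and Snhg12 stayed negative in KO against het in all of them, from -1.22 to -0.56 and from -1.46 to -0.82. The causes of the changes below were not tested, except that fewer libraries or other gene sets enter some fits.

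In KO against het the number of hosts called lower was 2; it was 1 with DESeq2, 0 with library size only, 1 with thinning to equal totals, 3 with limma-voom, and 1 to 3 without single libraries. In het against wt the number called higher was 0; it was 1 (Zfas1) with no filter (adjusted p = 0.00141), 1 with only the 2 groups compared (0.0412), and 0 to 1 without single libraries, where it was reached without KO replicate 1 or KO replicate 2. Over its alternatives the adjusted p of Zfas1 there ran from 0.00141 to 0.925. All genes called in het against wt numbered 19, and 29 with the length trend removed, 150 with no filter, 8 with limma-voom, 31 with thinning and 2 to 76 without single libraries. In KO against wt the 3509 calls became 2043 to 3815 without single libraries.

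Signs turned only for differences that had not passed. With library size only, KO against wt was 0.25 for Gas5 and 0.24 for Snhg5, and KO against het 0.032 for Gas5. Snhg5 in KO against wt was 0.063 with the length trend removed and 0.21 with thinning, and Snhg6 in KO against het was -0.16 with thinning. Without single libraries, KO against wt ran from -0.34 to 0.18 for Gas5, -0.041 to 1.02 for Snhg6 and -0.039 to 0.50 for Zfas1. Het against wt ran from -0.17 to 0.52 for Gas5, -0.35 to 0.50 for Snhg3 and -0.19 to 0.91 for Snhg6. KO against het ran from -0.60 to 0.061 for Gas5 and -0.25 to 0.43 for Snhg6. The TATAAA count of 4 promoters was the same from 100 bases before to 50 after the start, and that of TGGGAA was 1 in place of 2. Snhg3, Snhg6 and Snhg12 had under 50 counts in every wt and het library, which limits what can be seen of them.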

Other observations

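Regulators of growth and of TOP messenger RNA translation were listed as well. Of 16, 4 rose (Myc, Mycn, Max and Larp4) and 3 fell (Eif4ebp2, Larp1 and Ddit4) in KO against wt (median 0.13). Of all genes 14.7% rose and 17.3% fell there. In het against wt Myc rose (median 0.13), and in KO against het Myc and Mycn rose and the same 3 fell (median -0.014). Among all genes 0.128% rose in het against wt, and 13.9% rose and 17.2% fell in KO against het. Myc stood at 60.4 and 56.3 CPM in wt, 115 and 122 in het, and 152 and 161 in KO, and it rose in het against wt (edgeR adjusted p = 0.00113) and in KO against het (0.0181). Larp1, which binds TOP messenger RNAs, stood at 222 and 199 CPM in wt and 221 and 200 in het, and fell to 143 and 124 in KO (edgeR adjusted p = 1.77e-04 against wt). Eif4ebp1 and Rheb, the other 2 most abundant of the list, had log2 fold changes of 0.16 and 0.10 in KO against wt and did not pass. With library size only the list had 9 higher and 3 lower in KO against wt, and 7 higher and 2 lower in KO against het. Over all 10952 genes this scaling gave 3878 higher and 1034 lower in KO against wt, and 3930 and 1016 in KO against het. Myc, named for its call in all 3 comparisons, was picked out after its values were seen.

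The wt libraries differed from each other in the hosts. The 6 host genes summed to 150.3 CPM in wt replicate 4 and 219 in wt replicate 5, 213 and 267 in het, and 178 and 178 in KO. Erythroid markers, 2 of 11 at 0 in all libraries, summed to 418 and 149 CPM in wt, 121 and 382 in het, and 237 and 184 in KO, with no call among 5 tested in any comparison.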
